A study of Rattus norvegicus with 6 samples.

Results

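The Notch genes described here were chosen by name for their known roles in the choice between duct and endocrine fate. They comprise 3 receptors (Notch1, Notch2 and Notch3), 4 ligands (Jag1, Jag2, Dll1 and Dll4) and 3 target genes (Hes1, Hey1 and Nrarp). Of these 10 genes, 9 were found among the 15677 distinct symbols of the deposited tables, and Jag2 was not analysed here. With 10 reads in at least 3 libraries required for testing, 8 of the 9 passed, and Hey1 did not.

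RNA came from pancreatic duct glands of Sprague-Dawley rats, which were recognised by morphology and cut out by laser microdissection. Pancreatic duct glands are mucin-producing pouches in the wall of the larger ducts. The 3 libraries WT26, WT1 and WT4 came from wild-type rats, and HIP30, HIP2 and HIP3 from rats with a human islet amyloid polypeptide transgene (HIP), described by the submitters as pre-diabetic and as a model of type 2 diabetes. The transgene is driven in beta cells and not in duct cells, and its transcript was not analysed here. Age and sex are not given in the labels, and both groups share strain, tissue and collection. Whether every library is a separate animal is not stated, and the p-values therefore reflect the spread between libraries, which may be technical.

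Notch receptors are activated when a ligand of the Jagged or Delta-like family on a neighbouring cell binds them. The receptor is then cut, and its intracellular part enters the nucleus, joins the DNA-binding protein Rbpj and switches on target genes, among them the Hes and Hey repressors. In the developing pancreas, a cell with high Notch activity keeps its progenitor or duct character through Hes1, which represses the endocrine factor Neurog3, while the neighbour that starts on the endocrine path displays Dll1. Comparing HIP and wild-type glands therefore bears on whether the transcripts of this signalling machinery differ between them.

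The libraries held 15141136 to 17574682 reads on the listed genes. Levels are in CPM, counts per unit of sequencing depth after TMM scaling, and a single read corresponded to between 0.0595 and 0.0613 CPM. Where 3 values are given for a group, they follow the order WT26, WT1, WT4 or HIP30, HIP2, HIP3. The libraries carried the duct keratin transcript Krt19 at 1512 to 7315 CPM. The 7 beta cell markers listed of 9 all had 0 reads in WT26 and HIP30, summed to 93.8 CPM in WT1 and 153 CPM in HIP2, and came to 11300 CPM in WT4 but 5045 CPM in HIP3. HIP30 and HIP2 stood apart from the other 4 libraries in mitosis genes and in the macrophage gene Mpeg1, with values given below beside the Notch genes. Because these are bulk samples, fewer cells of a type and less RNA per cell cannot be told apart.

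Of the receptors, Notch1 and Notch2 were close to level between the groups. Notch1, the receptor best known from progenitor maintenance, stood at 231, 196.5 and 231 CPM in wild type, and at 230, 234 and 218 CPM in HIP. Its groups overlapped, and the log2 difference of HIP minus wild type was 0.05 with a standard error of 0.16, a sign that turned to -0.03 without WT1. Notch2, which is found in duct cells, stood at 238, 256 and 267 CPM in wild type and 268, 296 and 274 CPM in HIP. The lowest HIP value lay just above the highest wild-type value, but with library totals or median-of-ratios factors in place of TMM the groups overlapped. The log2 difference of Notch2 was 0.14 with a standard error of 0.16.

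Notch3, a receptor also known from vascular mural cells, was the most variable of the 3 in wild type. It stood at 367, 246 and 205 CPM in wild type and at 218, 184 and 264 CPM in HIP. WT26 was the high library, and without it the log2 difference of -0.27 (standard error 0.25) went to -0.03. The remaining receptor of the family, Notch4, is known from endothelium. It stood at 13.6, 7.42 and 23.9 CPM in wild type and 7.22, 9.15 and 11 CPM in HIP. Its groups overlapped, and the log2 difference was -0.58 with a standard error of 0.46. By limma no receptor passed, with Benjamini-Hochberg adjusted p-values of 0.955 for Notch1, 0.861 for Notch2, 0.827 for Notch3 and 0.794 for Notch4.

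**Figure D1:**
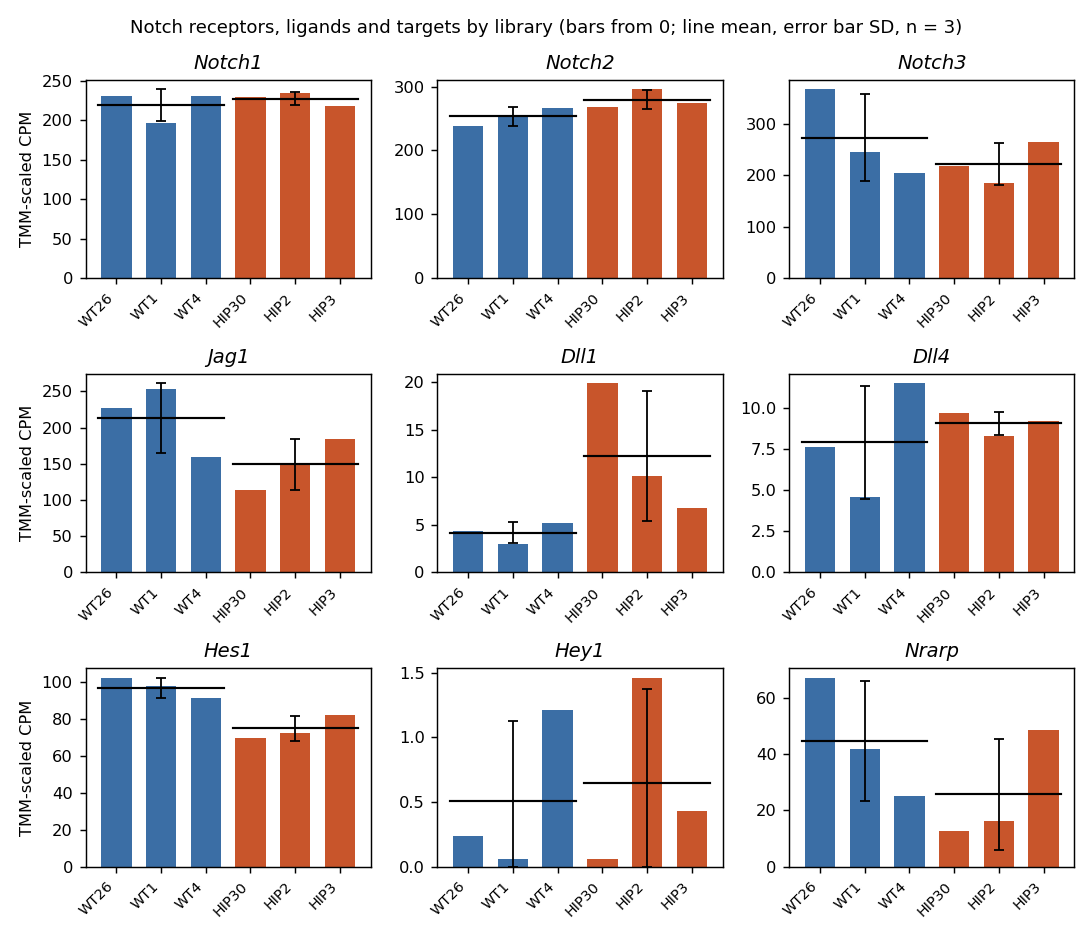
TMM-scaled CPM (vertical axes, each from 0) of the 9 listed Notch receptors, ligands and targets in the 3 wild-type (blue) and 3 HIP (orange) libraries, with the group mean as a line and the SD as an error bar (n = 3), cut at 0 where it would go below. Dll1 is higher in each HIP library than in each wild-type library, Hes1 is lower in each, and the other targets and Jag1 overlap, while Notch2 is higher in HIP by a narrow margin.

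Among the ligands, Dll1 had a higher and Jag1 a lower mean in HIP glands, and neither passed the test over all genes. Dll1, the Delta-like ligand displayed by cells entering the endocrine path, stood at 4.35, 3.01 and 5.16 CPM in wild type and at 19.9, 10.1 and 6.73 CPM in HIP. Every HIP library was above every wild-type library, also with library totals and with median-of-ratios factors, and HIP30 was the highest. The means were 12.2 ± 6.81 CPM (SD, n = 3) in HIP and 4.17 ± 1.09 CPM in wild type, a ratio of 2.93.

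The gap at the edge of the Dll1 groups was small against counting error. HIP3 had 110 reads, with an exact Poisson 95% interval of 5.53 to 8.11 CPM, and WT4 had 85 reads, with an interval of 4.12 to 6.38 CPM. HIP30, with 327 reads and an interval of 17.8 to 22.1 CPM, and HIP2, with 166 reads and an interval of 8.64 to 11.8 CPM, were clear of all wild-type intervals. These intervals cover counting error only, since the reads carry no molecular identifiers.

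The log2 difference of Dll1 was 1.42 with a standard error of 0.49 and was the only one among the 8 tested genes with an unadjusted p under 0.05. By limma this p was 0.0197, and 0.691 after Benjamini-Hochberg adjustment over all 12102 genes. Limma called 0% of all genes at an adjusted p under 0.05, and 792 genes or 6.54% had an unadjusted p under 0.05, so that 1 of 8 is near the background. The count of members moved with the settings. It was 0 without WT1 or without HIP30, but 4 of 8 without HIP3, when 14.9% of all genes had such a p, and 4 of 8 with limma-voom and sample quality weights, when 19.7% had. The difference ran from 1.003 without HIP30 to 1.76 without HIP3, and the unadjusted p rose to 0.0689 without WT1 and 0.0822 without HIP30.

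The promoter window of Dll1 is shown because this ligand had the largest difference of the 8 tested genes. Windows hold 250 bases before the annotated start and 50 from it on, taken from RefSeq on the build GRCr8, whereas the reads were placed on rn5. A window was found for 7 of the 9 genes. Capitals mark TGGGAA on either strand, the core that Rbpj recognises.
Dll1: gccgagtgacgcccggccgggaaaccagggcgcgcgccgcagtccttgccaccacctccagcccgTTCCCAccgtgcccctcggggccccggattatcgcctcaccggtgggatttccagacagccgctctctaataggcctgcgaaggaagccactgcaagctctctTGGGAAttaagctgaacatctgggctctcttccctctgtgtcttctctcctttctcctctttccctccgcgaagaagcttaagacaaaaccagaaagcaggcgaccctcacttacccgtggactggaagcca
This window lies at chr1:64993225-64993524 on the minus strand and holds 2 matches, which begin 185 and 82 bases before the start. At least 2 matches stood in 3.85% of the 33469 windows of this length, and at least 1 in 25.7%. A match describes these letters only and was not read as a bound site.

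Jag1, the Jagged ligand expressed along duct epithelium, stood at 226, 253 and 159 CPM in wild type and at 114, 149 and 185 CPM in HIP. HIP30 and HIP2 lay below all wild-type libraries, but HIP3 lay above WT4, so the groups overlapped. The log2 difference was -0.51 with a standard error of 0.25 (by limma, adjusted p = 0.691). It was -0.33 without HIP30 and -0.71 without WT4.

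Dll4, a ligand known above all from endothelium, stood at 7.62, 4.60 and 11.5 CPM in wild type and 9.65, 8.29 and 9.18 CPM in HIP. All 3 HIP values lay inside the wild-type range. The log2 difference of 0.28 (standard error 0.41, limma adjusted p = 0.903) turned to -0.06 without WT1. The remaining Delta-like ligand, Dll3, had 1 read in HIP30 and 0 in the other libraries, where 3 reads, the limit that a count of 0 allows, correspond to at most 0.184 CPM.

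Within a library, the ligands can be set against each other. There were 52.1, 84 and 30.9 Jag1 reads for each Dll1 read in wild type, and 5.75, 14.8 and 27.5 in HIP. The ratio needs no scaling between libraries but is not corrected for transcript length, so it compares libraries and not the abundance of the 2 ligands. Its groups did not overlap, although HIP3 and WT4 were close. No test was made of this ratio, which was formed after the levels were seen.

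The targets did not move as one. Hes1, the repressor that holds back Neurog3, stood at 102, 97.6 and 91.1 CPM in wild type and at 69.5, 72.6 and 82.4 CPM in HIP. Each HIP library lay below each wild-type library under all 3 scalings examined. The means were 74.8 ± 6.71 CPM (SD, n = 3) in HIP and 96.9 ± 5.44 CPM in wild type, a ratio of 0.772.

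The log2 difference of Hes1 was -0.38 with a standard error of 0.17 (limma, unadjusted p = 0.0539, adjusted p = 0.691). It stayed between -0.46 and -0.32 as each library was left out in turn. The unadjusted p of limma was 0.0465 with median-of-ratios factors, 0.0477 with no filter, 0.0371 with a term for the number series of the titles and 0.0475 without HIP3. Over all alternatives it ran from 0.0203 with sample quality weights to 0.158 without HIP30. The nearest libraries, HIP3 with an exact Poisson 95% interval of 78 to 86.9 CPM and WT4 with 86.6 to 95.9 CPM, touched within counting error.

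Nrarp, a small ankyrin protein that is induced by Notch and dampens it by destabilising the nuclear complex, varied most within the groups among the 8 tested genes. It stood at 67.1, 41.8 and 25 CPM in wild type and at 12.6, 16.3 and 48.4 CPM in HIP. HIP30 and HIP2 lay below every wild-type library, while HIP3 lay above both WT1 and WT4. The log2 difference was -0.94 with a standard error of 0.55 (by limma, adjusted p = 0.7). Without HIP3 it was -1.53 (limma, unadjusted p = 0.00812, adjusted p = 0.174), and without HIP30 it was -0.55.

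Hes1 and Nrarp ranked the libraries in the same order within each group, but Nrarp varied by a larger factor. There were 1.52, 2.34 and 3.65 Hes1 reads for each Nrarp read in wild type, and 5.53, 4.46 and 1.70 in HIP. HIP30 and HIP2 had higher ratios than any wild-type library, and HIP3 lay between WT26 and WT1. The windows of both genes are shown because both are textbook targets with lower group means in HIP.
Hes1: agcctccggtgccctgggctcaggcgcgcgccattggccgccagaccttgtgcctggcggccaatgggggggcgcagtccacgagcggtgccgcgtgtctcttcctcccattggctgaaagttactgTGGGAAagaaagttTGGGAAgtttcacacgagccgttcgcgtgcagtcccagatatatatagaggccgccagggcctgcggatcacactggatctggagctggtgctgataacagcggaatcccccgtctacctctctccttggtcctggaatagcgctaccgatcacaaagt
Nrarp: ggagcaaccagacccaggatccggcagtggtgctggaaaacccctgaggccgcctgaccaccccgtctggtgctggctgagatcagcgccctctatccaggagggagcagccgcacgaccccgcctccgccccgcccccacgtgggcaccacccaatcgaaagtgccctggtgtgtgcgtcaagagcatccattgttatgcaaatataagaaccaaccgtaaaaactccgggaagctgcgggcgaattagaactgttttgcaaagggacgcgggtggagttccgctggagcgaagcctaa
The Hes1 window, at chr11:84212996-84213295 on the minus strand, holds 2 TGGGAA matches on the strand of the gene, which begin 123 and 109 bases before the start. The Nrarp window, at chr3:28390495-28390794 on the plus strand, holds 0 such matches, which says only that these letters are not in this window. CACNAG, the N box that Hes proteins recognise, had 4 matches in the Hes1 window and 2 in the Nrarp window on either strand, and 0 in that of Dll1. At least 2 N box matches stood in 11.2% of all windows. The remaining windows held 1 TGGGAA match in Notch3, beginning 42 bases past the start, and 0 in Notch1, Notch2 and Jag1.

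Hey1, a repressor of the Hes-related family, was near the limit of detection. It had 4, 1 and 20 reads in wild type and 1, 24 and 7 reads in HIP. Its levels of 0.0607 to 1.46 CPM overlapped fully between the groups, and no difference was detectable at this depth. Its relative Hey2 had 0 to 15 reads and was not tested either.

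Heyl, the family member known from vascular smooth muscle, had the largest difference of the 4 tested targets. It stood at 0.595, 6.50 and 15.5 CPM in wild type and at 31.2, 23.8 and 14.1 CPM in HIP. WT26 had 10 reads, and HIP3 lay below WT4, so the groups overlapped. The log2 difference was 2.39 with a standard error of 1.012 (limma, unadjusted p = 0.0461, adjusted p = 0.691), and it was 1.11 without WT26 and 3.34 without WT4. Hes6, which opposes Hes1 in neural and endocrine cells, stood at 25.3 CPM in HIP30 and between 13.6 and 15.7 CPM in the other libraries.

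**Figure D2:**
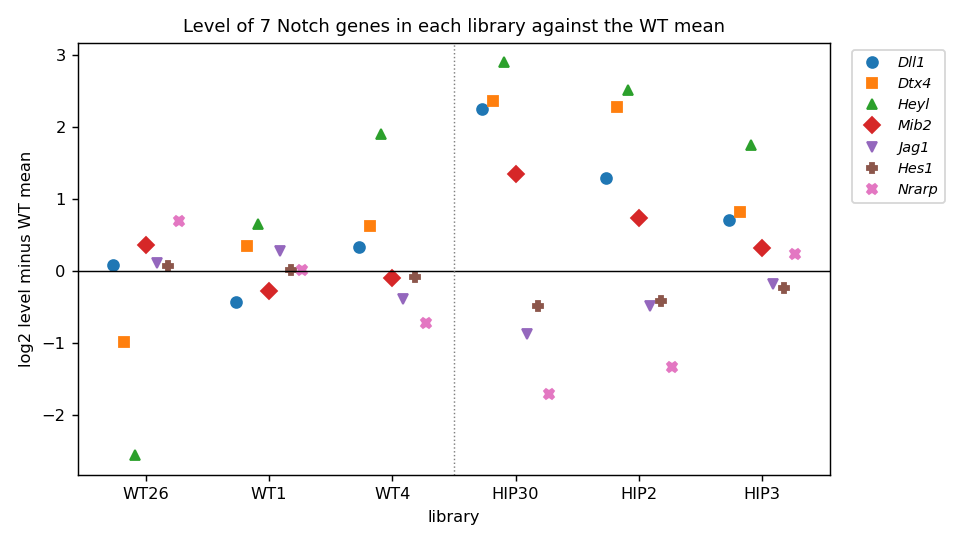
Log2 level (TMM-scaled, with the pseudocount) minus the wild-type mean of the same gene for 7 Notch pathway genes, chosen after their values were seen, in each library (horizontal axis, wild type left of the dotted line). In HIP30 and HIP2 the genes Dll1, Dtx4, Heyl and Mib2 lie above 0 and Jag1, Hes1 and Nrarp below, while HIP3 is nearer to 0 for each gene except that Nrarp is above it.

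Of the 8 tested genes 3 did not overlap between the groups under TMM scaling, Dll1 and Notch2 higher and Hes1 lower, beside 9.54% of all genes in either direction (5.27% higher and 4.27% lower). Without Notch2, whose separation depended on the scaling, 2 of 8 remained. The median log2 difference of the 8 genes was -0.11, beside 0.01 over all 12102 genes, with 4 positive and 4 negative. The members were chosen with earlier results of these data known, so these counts are descriptions.

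The 3 HIP libraries stood in the same order for several of these genes. Dll1 was highest in HIP30, then HIP2, then HIP3, and Jag1, Hes1 and Nrarp were lowest in HIP30, then HIP2, then HIP3. HIP3 was the HIP library nearest to the wild-type mean for each of these 4 genes. Against that mean, Dll1 stood at 2.25, 1.29 and 0.71 on the log2 scale in HIP, and Hes1 at -0.48, -0.42 and -0.23. Jag1 stood at -0.87, -0.48 and -0.18, and Nrarp at -1.70, -1.33 and 0.23. The other tested members, Notch1, Notch2, Notch3 and Dll4, did not follow the order HIP30, HIP2, HIP3.

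Mitosis genes stood in the same order among the HIP libraries. The 13 listed of 14 mitosis genes summed to 1668 to 2710 CPM in wild type and to 98.5, 438 and 2506 CPM in HIP, and 9 of them, with Mki67 and Top2a, were at 0 reads in HIP30. Fibroblast genes, 10 of 10 listed, summed to 1516 to 2314 CPM in wild type and to 485, 841 and 1844 CPM in the HIP libraries, with none at 0. All 10 fibroblast genes had negative differences. Of them 7 had an unadjusted p under 0.05 (limma), beside 3.26% of all genes lower at that p. Without overlap 5 of the 10 were lower in HIP, beside 4.27% of all genes. Leukocyte genes, 10 of 10 listed, summed to 441 to 793 CPM in wild type and to 2431, 2470 and 652 CPM in HIP, with Cd3e and Mpeg1 among those at 0 reads in WT26. Mpeg1 alone made this difference in the sums, at 1927 and 1943 CPM in HIP30 and HIP2 and at most 184 CPM elsewhere. The other 9 genes summed to 441 to 608 CPM in wild type and 505 to 528 CPM in HIP. Among them Itgam stood at 2.02, 2.82 and 5.04 CPM in wild type and 9.65, 6.34 and 10.5 CPM in HIP. Its groups did not overlap (limma, unadjusted p = 0.0153, adjusted p = 0.691). Of the 9 tested leukocyte genes 8 were positive and 1 negative, and Itgam was the only 1 without overlap. The part of these differences in the Dll1, Jag1, Hes1 and Nrarp values was not tested.

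**Figure D3:**
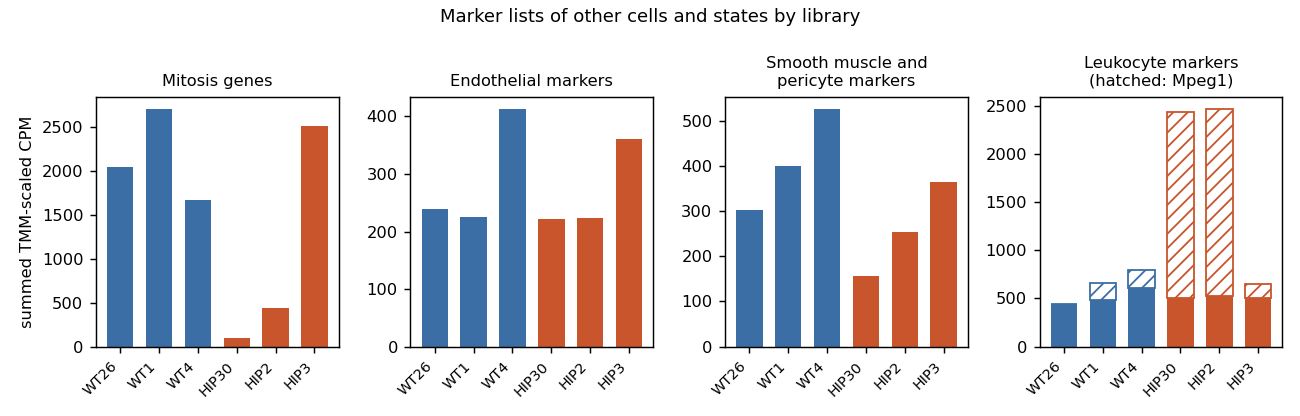
Summed TMM-scaled CPM (vertical axes, each from 0) of 4 marker lists in the wild-type (blue) and HIP (orange) libraries. Mitosis genes are low in HIP30 and HIP2 and within the wild-type range in HIP3. The high leukocyte sums of HIP30 and HIP2 come from Mpeg1 (hatched), while the sum of the other 9 genes lies within the wild-type range.

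Markers of vessels were read beside the Notch genes known from vessels. The 15 listed of 16 endothelial markers, none of them at 0 in any library, summed to 225 to 414 CPM in wild type and 221 to 361 CPM in HIP. WT4 was the highest for this sum and for both Dll4 and Notch4. The 12 smooth muscle and pericyte markers summed to 304, 399 and 527 CPM in wild type and 157, 254 and 365 CPM in HIP. Of the 11 tested ones 9 were negative and 2 positive. Among them 3 had an unadjusted p under 0.05 (limma), all lower, beside 3.26% of all genes. Without overlap 3 were lower in HIP, beside 4.27% of all genes. Cnn1 was at 0 in WT4, HIP30 and HIP2. From WT26 over WT1 to WT4 this sum and Heyl both rose, while Notch3 fell. From HIP30 over HIP2 to HIP3 the sum rose and Heyl fell, while Notch3 was lowest in HIP2 and highest in HIP3. The part of these cells in the Dll4, Notch4, Heyl and Notch3 values was not tested.

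The rest of the pathway was followed through 64 other genes, of which 54 were listed and 49 tested. None passed limma at an adjusted p under 0.05, and 4 had an unadjusted p under 0.05, all higher in HIP, beside 3.29% of all genes higher and 3.26% lower at that p. There were 30 positive and 19 negative differences, and their median log2 difference was 0.14. The groups did not overlap for 2 of the 49, Dtx4 and Kat2a, both higher in HIP. Over all genes this held for 9.54%, with 5.27% higher and 4.27% lower. Together with the 8 tested members, 5 of 57 genes, or 8.77%, had an unadjusted p under 0.05. Without HIP3 they were 13 of 57, or 22.8%, when the share of all genes was 14.9%, and without WT1 or without HIP30 they were 1 of 57, when the share of all genes was 2.62% and 2.21%.

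Dtx4 had the lowest p of these 49 genes, although the difference of Heyl was larger. It encodes a Deltex ubiquitin ligase, which binds the intracellular part of Notch, and stood at 9.47, 24 and 29.1 CPM in wild type and at 96.9, 91.8 and 33.3 CPM in HIP. Every HIP library was above every wild-type library, HIP3 only by a little. The log2 difference was 1.82 with a standard error of 0.53 (limma, unadjusted p = 0.00916, adjusted p = 0.691), and it was 1.33 without WT26 and 2.31 without HIP3. Its relative Dtx3 differed by 1.09 with overlapping groups, and Dtx2 by -0.23.

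Tle2 and Tle3, Groucho-type corepressors that Hes proteins recruit, had unadjusted p-values of 0.0468 and 0.0425 (limma). Tle2 stood at 13.2, 10.4 and 21 CPM in wild type and 52.3, 30.4 and 16.8 CPM in HIP. Tle3 stood at 26.1, 33.7 and 55.9 CPM in wild type and 94.8, 76.4 and 43.6 CPM in HIP. For both genes HIP3 lay below WT4, so the groups overlapped, as they did for Tle1, which differed by 0.34. The 11 tested corepressors had a median difference of 0.16.

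Mib2, a ubiquitin ligase that drives the uptake of Delta ligands needed for signalling, stood at 16.7, 10.7 and 12.2 CPM in wild type and 33.2, 21.6 and 16.2 CPM in HIP. HIP3 lay just below WT26. The log2 difference was 0.80 with a standard error of 0.35 (by limma, adjusted p = 0.691), whereas Mib1, the other Mind bomb ligase, differed by 0.22. Dlk2, a ligand-like protein without the usual receptor-binding domain, differed by 1.35 at levels of 0.238 to 2.73 CPM. The adhesion protein Cntn1 and the matrix protein Postn, both named as atypical ligands, differed by -1.43 and -1.11, with HIP3 above the wild-type mean and HIP30 far below it for each.

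The genes that cut and modify the receptors lay near 0. All 9 genes of receptor cleavage lay between -0.29 and 0.30 on the log2 scale, with Adam17, the sheddase, at 0.30, and the gamma-secretase subunit Psenen at -0.29. The 5 genes of receptor glycosylation lay between -0.21 and 0.34, with Poglut1 and Rfng, sugar transferases, both at 0.34. In the nuclear complex all 6 tested genes were positive, from 0.05 to 0.36. Kat2a, an acetyltransferase, stood at 55.1, 53.2 and 62.7 CPM in wild type and 66, 74.3 and 79.6 CPM in HIP, without overlap (limma, adjusted p = 0.691). Rbpj, named although it fell outside the naming rule, stood at 106, 186 and 147 CPM in wild type and 130, 161 and 154 CPM in HIP.

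**Figure D4:**
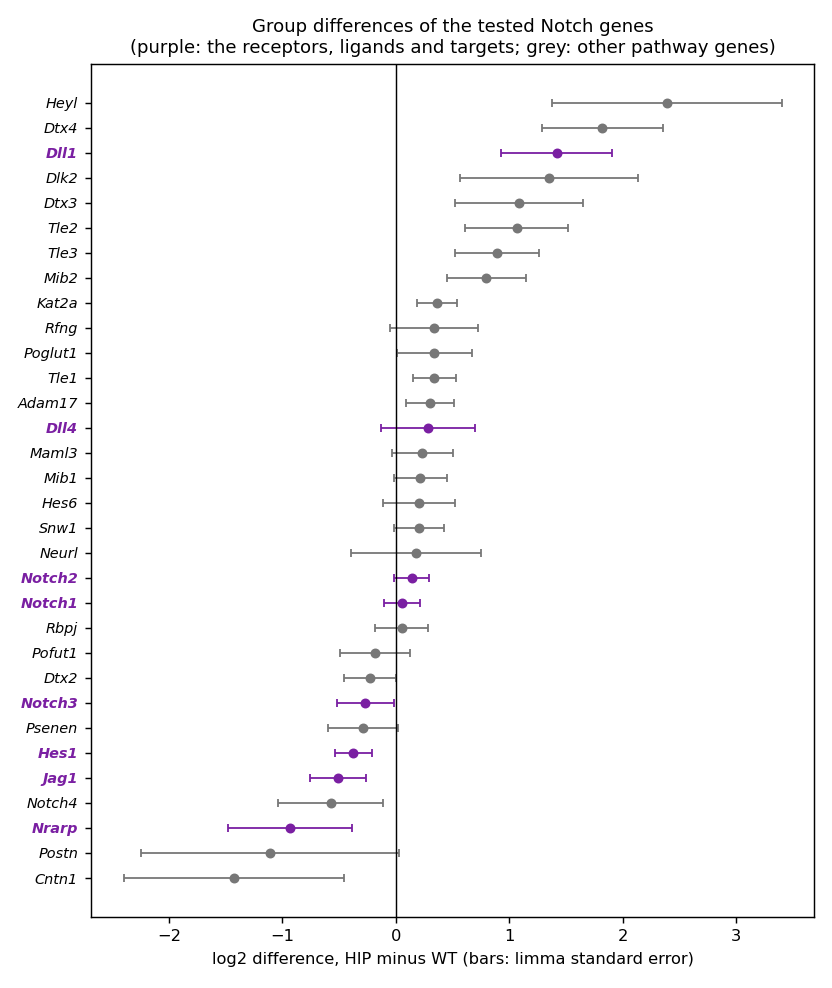
Log2 difference of HIP minus wild type (horizontal axis) with limma's standard error as bars for the 8 tested Notch receptors, ligands and targets (purple) and other named pathway genes (grey). On the higher side Heyl at 2.39 is the farthest from 0, followed by Dtx4 at 1.82 and Dll1 at 1.42. On the lower side Cntn1 at -1.43 is the farthest, followed by Postn at -1.11 and Nrarp at -0.94. Among the receptors Notch1 and Notch2 lie near 0, Notch3 at -0.27 and Notch4 at -0.58. No gene passed the adjusted threshold.

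The endocrine genes that Notch holds back were sparse. Neurog3, the factor that starts the endocrine path, had 0, 8 and 23 reads in wild type and 1, 2 and 14 reads in HIP. Its highest counts were in WT4 and HIP3, the libraries with the most beta cell transcripts, and it stood at 0.0607 CPM in HIP30, where Dll1 was highest. Neurod1, which acts after Neurog3, stood at 0, 1.17 and 6.68 CPM in wild type and 0.850, 0.915 and 3.24 CPM in HIP. Fev, a serotonergic and endocrine factor, had at most 2 reads in any library. No group difference of these genes was detectable at this depth.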

How the data were processed

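Pancreatic duct gland RNA was sequenced in 3 wild-type and 3 HIP libraries, grouped by their titles. Per the labels' protocols, RNA came from a small-sample kit and libraries from a low-input kit. Per the submitters' processing notes, STAR, HTSeq, edgeR, limma and the build rn5 were used, without versions or order. How strand was handled is not stated there. The deposited values are log2 CPM with a small prior, 1 table per library. Whole reads were recovered from them for 100% of entries within 0.1 reads; 4 rows of 2 repeated symbols were left out.

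TMM factors (trims of 30% and 5%, own code) lay between 0.933 and 1.09. A gene was tested if 3 libraries reached 0.61 CPM, the worth of 10 reads in the median library, and its reads summed to 15. The test was limma 3.58.1 (R 4.3.3) with a trend on mean level, applied to log2(CPM + 0.121), where 0.121 CPM is 2 reads, Benjamini-Hochberg adjusted over all 12102 genes at 0.05. Changes of low genes come out too small on that scale. The steps were tested on simulated data with planted differences larger than those of the tested members, so differences as small as theirs were not covered. Library totals of 15141136 to 17574682 reads set the counting error.

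The members and gene lists were chosen with earlier results of these data known. Named were all members, up to 3 other genes per pathway list by lowest p, their paralogs and fate genes; Rbpj was added, and some of the genes this rule gives are not reported here. Alternatives covered scaling, filter, pseudocount, limma-voom, a term for title numbers 26 and 30, and left-out libraries.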

Additional observations from a re-analysis of the deposited data

How the results depend on the processing

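The count of genes called was 0 in limma and in every alternative run, with 792 genes at an unadjusted p under 0.05 in limma, 914 in limma-voom and 2388 in limma-voom with sample quality weights. Dll1, Jag1, Hes1, Nrarp, Notch2 and Notch3 kept their sign in all alternatives that tested them. With each library left out in turn, the sign of some small differences turned: Notch1 ran from -0.0316 to 0.094, Dll4 from -0.0596 to 0.60, Hes6 from -0.0652 to 0.34, Poglut1 from -0.00433 to 0.55, Pofut1 from -0.39 to 0.11, Neurl from -0.29 to 0.64, Neurod1 from -0.98 to 1.93 and Rbpj from -0.16 to 0.23. Rbpj was also -0.0299 with limma-voom and sample quality weights. Without both WT4 and HIP3, the libraries rich in insulin transcripts, Dll1 went to 1.94, Jag1 to -0.87 and Nrarp to -1.88. Between HIP30 and WT26 alone Dll1 differed by 2.16, and among the libraries numbered 1 to 4 by 1.04; for Nrarp these were -2.41 and -0.20. No paired analysis was possible because the groups share no replicate numbers. Depth limited Hey1, Hey2, Dll3 and Neurog3, with at most 24 reads in a library.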

Other observations

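The duct genes fixed beside the Notch lists had mostly positive differences. Of 11 duct fate genes 7 were listed and tested, without Sox9 and Krt7. Of these 7 genes 5 were positive and 4 had an unadjusted p under 0.05 (limma), beside 3.29% of all genes in that direction. The median log2 difference of the 7 was 0.57. Krt19, the most abundant of them, went the other way, at -0.95 with overlapping groups. Its means were 4065 CPM in wild type and 1811 CPM in HIP. Pdx1 was also negative, at -0.045. Chga, a granule protein of endocrine cells, had 0 reads in WT26, 28.5 CPM in WT4 and 3.72 to 7.16 CPM in the HIP libraries.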
